A study of Homo sapiens with 6 samples.

Results

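Interferon-stimulated genes are the genes a cell switches on when it receives interferon or senses viral RNA or DNA. Interferon binds receptors at the cell surface, the attached kinases JAK1 and TYK2 phosphorylate STAT proteins, and a complex that holds STAT2 and IRF9 then binds a promoter element called the ISRE. The products include RNA sensors, enzymes that act on double-stranded RNA, proteins that bind viral RNA and the ubiquitin-like protein ISG15 with its conjugating enzymes, and many cells keep some of them at a low level without added interferon. The 51 genes described here were taken from the deposited count table by symbol, out of 60676 genes listed. The rule is a list of names and sets no threshold on a measured value, and the list was drawn up with earlier results of these data known.

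The libraries came from TC71, a human Ewing sarcoma cell line, stably carrying a Dox-inducible lentiviral vector that encodes GFP and either a non-targeting shRNA (shNTC+Dox, 3 libraries) or an shRNA against EHD1 (shEHD1+Dox, 3 libraries). EHD1 is a membrane-remodeling ATPase of endosomes, and the study asked what its loss changes in these tumor cells. Both groups were grown for 3 days with 0.5 µg/ml Dox, so both express an shRNA and both received Dox. The lines are polyclonal, the labels do not say which of the study's EHD1 shRNAs was used, and nothing says that the 3 libraries of a group came from separate cultures, so the p-values measure the spread between these libraries, which may be technical.

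Total counts ran from 22711235 to 28203023 in shNTC+Dox and from 24150135 to 30582187 in shEHD1+Dox. EHD1 had 713, 775 and 589 counts in shNTC+Dox against 215, 175 and 290 in shEHD1+Dox, in the direction of the labels (log2 fold change -1.76, edgeR adjusted p = 1.35e-04). On the second principal component shNTC+Dox replicate 3, the library with the lowest total, lay at -38.7 and the other shNTC+Dox libraries at 32.8 and 29.1. All 10 Ewing sarcoma markers examined had counts in shNTC+Dox, their summed level running from 1085 to 1212 CPM in shNTC+Dox and from 1028 to 1133 CPM in shEHD1+Dox (CPM: counts scaled to a common library size after TMM normalization). These markers moved too: of 9 tested, CD99 rose (log2 fold change 0.33), and STEAP1 (-0.43), GLCE (-0.40) and PAX7 (-0.38) fell at an edgeR adjusted p under 0.05, while CCK had 11, 5 and 12 counts in shNTC+Dox and 0 in every shEHD1+Dox library. Their part in the results below was not tested. Of 9 leukocyte markers, CD3E and MS4A1 were at 0 in every library, and the summed level of the list ran from 3.45 to 5.74 CPM in shNTC+Dox and from 2.39 to 5.05 CPM in shEHD1+Dox, most of it from CD68. Of 7 fibroblast and endothelial markers, KDR and VWF were at 0. The sum ran from 5.95 to 7.40 CPM in shNTC+Dox and from 4.61 to 5.55 CPM in shEHD1+Dox, moving with DCN. Of the 2 tested, DCN fell (log2 fold change -1.01, edgeR adjusted p = 0.00778). LUM was higher and did not pass (log2 fold change 0.44, edgeR adjusted p = 0.340). The part of these 2 genes in the results below was not tested.

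Of the 51 interferon-stimulated genes, 34 had at least 10 counts in at least 3 libraries and were tested, and these 34 reached 10 counts in all 6 libraries. With shEHD1+Dox, 9 of them rose and 4 fell (edgeR adjusted p under 0.05), against 8.59% higher and 8.75% lower (17.3% in all) of the 16785 genes tested. The genes that rose were DDX58, DHX58, IFIT1, IFIT2, IFIT3, USP18, TRIM21, IFI6 and PML. Those that fell were SP100, OAS3, IFI44 and IFI44L. At a fold change of at least 2, IFIT2 and DHX58 were higher and SP100, OAS3 and IFI44 lower, 5 of 34, where 2.82% of all genes tested passed, 1.08% higher and 1.74% lower. The median log2 fold change of the 34 was 0.36 and their range -1.67 to 1.12, while the median of all genes tested was 7.99e-04. The remaining 21 did not pass the test.

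**Figure D1:**
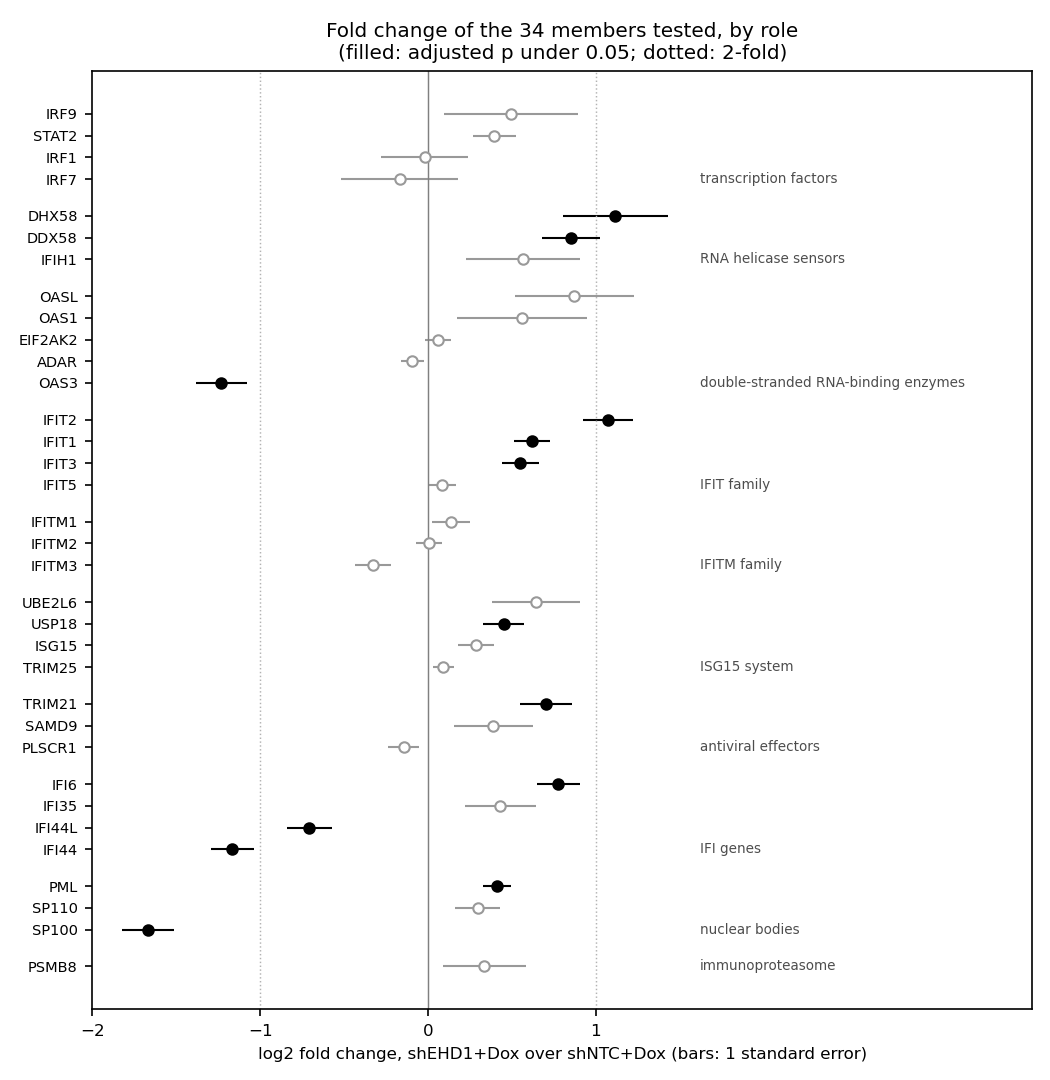
Log2 fold change of shEHD1+Dox over shNTC+Dox on the horizontal axis for each of the 34 members tested, grouped by role on the vertical axis, with bars of 1 standard error. Filled points passed an adjusted p of 0.05. They lie on both sides of 0, from SP100 at -1.67 to DHX58 at 1.12.

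Each library's median over the 34 members, as log2 CPM relative to the mean of the 6 libraries, was -0.07, -0.07 and -0.18 in shNTC+Dox replicates 1, 2 and 3 and 0.22, 0.04 and 0.23 in shEHD1+Dox replicates 1, 2 and 3. The lowest value within each group belonged to the library with the fewest counts of that group, and the part of depth in it was not tested. For 13 members every shEHD1+Dox library lay above every shNTC+Dox library and for 5 every one lay below, against 19.9% and 19.4% of all genes tested. For the other 16 the groups overlapped. For 1 gene compared between 3 and 3 libraries, the smallest two-sided p of the exact permutation test is 0.1, which each non-overlapping gene reaches.

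**Figure D2:**
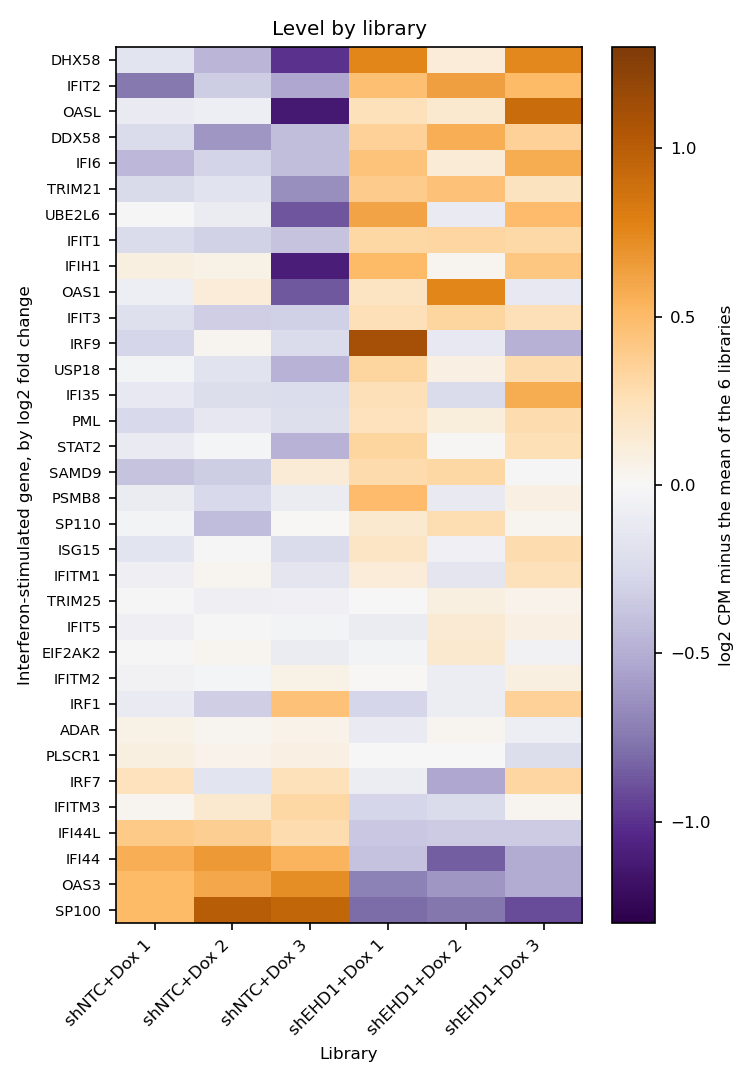
Level of each tested member (rows, ordered by log2 fold change) in each of the 6 libraries (columns), as log2 CPM minus the mean of the 6 libraries. Most upper rows run from low in shNTC+Dox to high in shEHD1+Dox, and IFI44L, IFI44, OAS3 and SP100 at the bottom run the opposite way.

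The ISRE was searched in the promoters of the members because STAT2 and IRF9 act through it. RefSeq promoter sequences (GRCh38.p14, 250 bases before to 50 after the start site) were found for 41 of the 51 members. The ISRE, written as GAAA, any 2 bases and GAAA, on either strand and with overlapping matches counted, occurred in 22 of these 41 promoters (53.7%) and in 3.65% of 27305 promoters in the table. It occurred in 4 of 5 promoters of members that rose, in 3 of 4 of members that fell, in 8 of 18 of members that did not pass the test and in 7 of 14 of members too low to test. The GAS element, written as TTC, any 3 bases and GAA and bound by STAT dimers, occurred in 8 of the 41 promoters and in 7.88% of all, and in none of the 9 promoters of members that rose or fell. A match of letters is a description of the window and not a measured binding site. The stretches below are shown because members with the same element rose, fell, did not pass the test or were silent. They are read on the gene's own strand, 5′ to 3′, with the ISRE letters or their reverse complement in capitals.
IFIT1, rose, chr10:89392510-89392539, plus strand: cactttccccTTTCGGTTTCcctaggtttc
IFIT3, rose, chr10:89327865-89327894, plus strand: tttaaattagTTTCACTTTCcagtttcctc
IFI6, rose, chr1:27672288-27672317, minus strand: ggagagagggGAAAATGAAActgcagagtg
IFI44, fell, chr1:78649759-78649788, plus strand: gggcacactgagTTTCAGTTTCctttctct
IFI44L, fell, chr1:78620365-78620394, plus strand: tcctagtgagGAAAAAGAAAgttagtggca
OAS3, fell, chr12:112938321-112938350, plus strand: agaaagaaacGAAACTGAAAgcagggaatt
ISG15, did not pass, chr1:1013380-1013409, plus strand: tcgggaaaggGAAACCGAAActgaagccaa
IFIT5, did not pass, chr10:89414513-89414542, plus strand: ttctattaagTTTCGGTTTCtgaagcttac
CXCL10, no counts, chr4:76023699-76023728, minus strand: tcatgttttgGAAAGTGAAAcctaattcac
HERC5, at most 3 counts, chr4:88457035-88457064, plus strand: aaacattatgTTTCGTTTTCcactggagct
The element ended 94 bases before the start site in IFIT1, 106 in IFI6, 64 in IFI44L, 134 in OAS3, 98 in ISG15 and 9 in IFI44. IFI6 held 3 such elements and IFI44L 2, the 30 bases around both elements of IFI44L being the same.

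The members differed widely in level in shNTC+Dox, whose cells express an shRNA and received Dox. Exon length was that of all annotated exons of a gene together, 12242 bases for ADAR and 867 for ISG15. The order between genes depends on it. Per kilobase of exon, in shNTC+Dox, the highest were ADAR at 32.4 ± 0.411 CPM per kb and ISG15 at 28.7 ± 2.32 (SD, n = 3). They were followed by IFITM2 at 24.1 ± 0.975, IFITM1 at 17.3 ± 1.07, IFITM3 at 16.1 ± 1.59, EIF2AK2 at 13.4 ± 0.577, IFI6 at 13.4 ± 0.775 and IFI44 at 12.3 ± 0.613 CPM per kb. IFITM1 and IFITM3 did not differ beyond their spread, nor did EIF2AK2 and IFI6. In shEHD1+Dox ISG15 was at 35.0 ± 4.07 and ADAR at 30.4 ± 1.64 CPM per kb, IFI6 at 23.0 ± 3.50 and IFI44 at 5.47 ± 0.868.

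**Figure D3:**
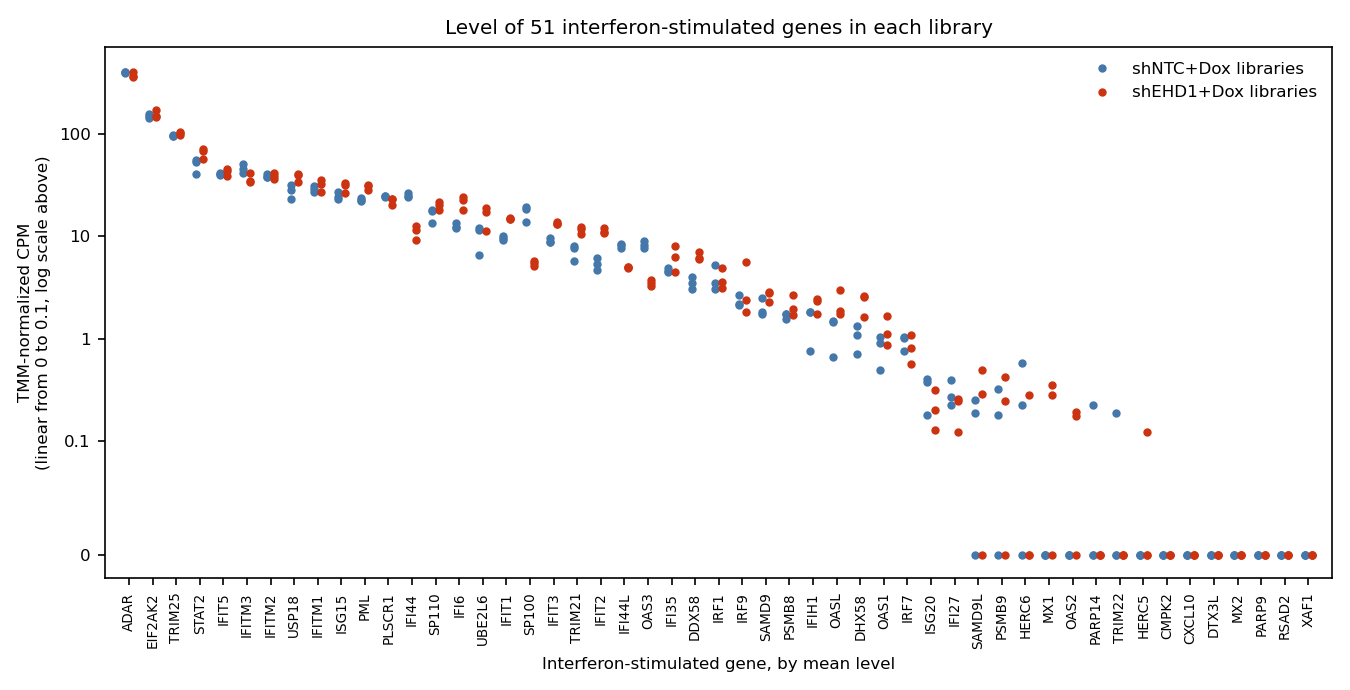
TMM-normalized CPM (vertical axis, linear from 0 to 0.1 and logarithmic above) of the 51 genes, ordered by mean level, with 1 point per library for shNTC+Dox and shEHD1+Dox. ADAR has the highest points, and 7 genes are at 0 in all 6 libraries.

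Of the 51 members 7 had no count in any library, as had 29676 of the 60676 genes listed. These were MX2, RSAD2, CMPK2, XAF1, PARP9, DTX3L and CXCL10, and a count of 0 allows a level of up to 0.0968 to 0.134 CPM depending on the library (3 counts, counting error only). Among them RSAD2 makes the chain-terminating nucleotide ddhCTP, MX2 is a dynamin-like GTPase that restricts retroviruses, and CXCL10 is a chemokine that draws T cells. A further 10 members had some counts and were not tested, with at most 16 counts in any library. MX1, the dynamin-like GTPase that restricts influenza virus, had 0, 0 and 0 counts in shNTC+Dox against 8, 0 and 11 in shEHD1+Dox. OAS2 had 0, 0 and 0 counts against 5, 0 and 6. For both genes, counts were found in shEHD1+Dox replicates 1 and 3 and in no other library. SAMD9L had 5, 7 and 0 counts in shNTC+Dox against 14, 0 and 9 in shEHD1+Dox, and PSMB9 had 0, 9 and 4 against 7, 0 and 13. ISG20, a 3′ exonuclease, had 10, 5 and 9 counts against 9, 5 and 4, and IFI27 had 6, 11 and 6 against 7, 3 and 8. HERC6 had 0, 16 and 5 counts against 0, 7 and 0, and HERC5 had 0, 0 and 0 against 0, 3 and 0, so that in shEHD1+Dox both had counts in replicate 2 alone. TRIM22 and PARP14 had 5 counts each, in 1 shNTC+Dox library. At these counts no difference between the groups was detectable.

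None of the 4 transcription factors passed the test. STAT2 (ENSG00000170581, chromosome 12 from 56341597 to 56360203), which brings the activation domain to the ISRE complex, had 1388, 1541 and 914 counts in shNTC+Dox against 2031, 1398 and 2106 in shEHD1+Dox. Scaled to library size these are 49.7 ± 7.79 and 65.4 ± 7.42 CPM (SD, n = 3 each), and the groups did not overlap. Its log2 fold change was 0.40 (standard error, SE, 0.13; edgeR adjusted p = 0.0648), while the Wald test of DESeq2 gave an adjusted p of 0.0226 at 0.39. IRF9 (ENSG00000213928), which gives the complex its DNA-binding specificity, had 56, 74 and 49 counts against 161, 58 and 57, so that 1 shEHD1+Dox library stood above all others. Its log2 fold change of 0.49 (SE 0.40, edgeR adjusted p = 0.433) became -0.15 without shEHD1+Dox replicate 1. IRF1, a factor induced early by interferon gamma, had 93, 84 and 117 counts against 89, 88 and 151, a log2 fold change of -0.02 (SE 0.26, edgeR adjusted p = 0.969) that was 0.24 without shNTC+Dox replicate 3. IRF7, which drives interferon alpha transcription, was low at 14 to 34 counts (log2 fold change -0.17, SE 0.35, edgeR adjusted p = 0.776). IRF9 shares 1757 exon bases with other annotated genes and IRF1 2805 with the antisense gene IRF1-AS1, and counts there could belong to either gene.

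The cytosolic sensors of viral RNA had 2 of 3 members that rose. DDX58 (RIG-I, ENSG00000107201, chromosome 9 from 32455302 to 32526208), which recognizes RNA with a 5′ triphosphate, had 105, 85 and 79 counts in shNTC+Dox against 172, 172 and 188 in shEHD1+Dox. It rose from 3.53 ± 0.459 to 6.37 ± 0.561 CPM. The log2 fold change was 0.85 (SE 0.17, edgeR adjusted p = 0.0116). DHX58 (LGP2, ENSG00000108771, chromosome 17 from 42101404 to 42112714), a related helicase without a signaling domain, had 35, 30 and 16 counts against 74, 40 and 80, and its log2 fold change was 1.12 (SE 0.31, edgeR adjusted p = 0.0398). All shEHD1+Dox libraries lay above all shNTC+Dox libraries for both genes. The call of DHX58 did not hold in 5 of 6 fits with a library left out. Its log2 fold change was 1.32 without shNTC+Dox replicate 1 (edgeR adjusted p = 0.0519), 1.14 without shNTC+Dox replicate 2 (0.0858), 0.92 without shNTC+Dox replicate 3 (0.0534), 1.01 when shEHD1+Dox replicate 1 (0.135) or replicate 3 (0.137) was left out. IFIH1 (MDA5), the sensor of long double-stranded RNA, had 48, 50 and 17 counts against 70, 43 and 72, and the groups overlapped (log2 fold change 0.57, SE 0.34, edgeR adjusted p = 0.290). GENCODE annotates another gene over 4471 exon bases of DDX58 on the same strand, which the count table does not list.

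Among the enzymes that bind double-stranded RNA, OAS3 fell and no other member passed. OAS3 (ENSG00000111331, chromosome 12 from 112938051 to 112976460) makes 2′-5′ oligoadenylate, a messenger, when it binds double-stranded RNA. It had 203, 228 and 200 counts in shNTC+Dox against 94, 86 and 117 in shEHD1+Dox, every shEHD1+Dox library lying below every shNTC+Dox library. The level fell from 8.29 ± 0.623 to 3.53 ± 0.240 CPM. The log2 fold change was -1.23 (SE 0.15, edgeR adjusted p = 0.00133). OAS1, another synthetase, had 24, 29 and 11 counts against 32, 41 and 27 (log2 fold change 0.56, SE 0.39, edgeR adjusted p = 0.357). OASL, a relative without synthetase activity, had 38, 41 and 15 against 53, 43 and 93 (log2 fold change 0.87, SE 0.36, edgeR adjusted p = 0.127). The groups did not overlap for OASL and overlapped for OAS1. EIF2AK2 (PKR), the kinase that halts translation by phosphorylating eIF2α, was at 148 ± 6.37 and 155 ± 12.7 CPM (log2 fold change 0.06, SE 0.08, edgeR adjusted p = 0.635). ADAR, which edits adenosine to inosine in double-stranded RNA, was at 397 ± 5.03 and 372 ± 20.1 CPM (log2 fold change -0.09, SE 0.07, edgeR adjusted p = 0.375).

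The IFIT genes, which lie side by side on chromosome 10, rose in 3 of 4 cases. IFIT2 (ENSG00000119922, from 89283694 to 89309271) had 122, 171 and 120 counts in shNTC+Dox against 309, 297 and 344 in shEHD1+Dox. IFIT1 (ENSG00000185745, from 89392546 to 89406487) had 267, 269 and 205 against 423, 367 and 457, and IFIT3 (ENSG00000119917, from 89327307 to 89377473) had 252, 243 and 198 against 371, 337 and 404. For all 3 genes the groups were well apart, and the CPM of IFIT1 in the shEHD1+Dox libraries, 14.9 ± 0.119, hardly varied. The log2 fold changes were 1.07 for IFIT2 (SE 0.15, edgeR adjusted p = 0.00230), 0.62 for IFIT1 (SE 0.11, edgeR adjusted p = 0.00565) and 0.55 for IFIT3 (SE 0.11, edgeR adjusted p = 0.0113). IFIT5, the last of the row, was at 40.2 ± 0.759 and 42.6 ± 3.51 CPM and did not pass (log2 fold change 0.08, SE 0.08, edgeR adjusted p = 0.516). The ratio of IFIT2 to IFIT5 counts within a library, which no scaling can move, was 0.118, 0.151 and 0.133 in shNTC+Dox against 0.280, 0.266 and 0.255 in shEHD1+Dox (exact permutation test, p = 0.1, the smallest possible). The exons of IFIT2 share 65 bases and those of IFIT3 94 bases with LIPA on the opposite strand, which had 1459 to 3353 counts. With LIPA and another overlapping gene added to IFIT2 the log2 fold change was 0.44 (edgeR adjusted p = 0.0268), and with LIPA added to IFIT3 it was 0.40 (edgeR adjusted p = 0.0327). LIPA itself had 2278, 2491 and 1459 counts in shNTC+Dox against 2947, 2529 and 3353 in shEHD1+Dox, and made up most of each sum. The summed values therefore mainly follow LIPA and cannot show whether shared reads bear on the calls of IFIT2 and IFIT3.

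**Figure D4:**
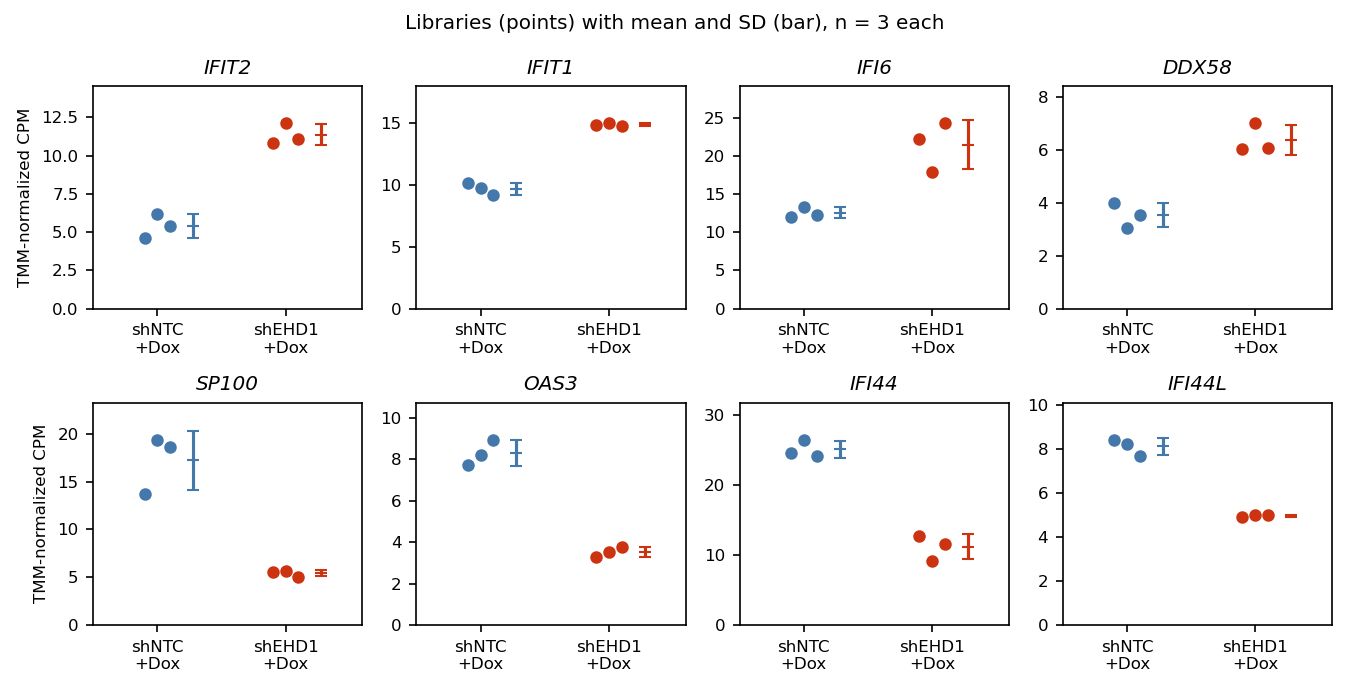
TMM-normalized CPM (vertical axes, from 0) of 8 members in the 3 shNTC+Dox and 3 shEHD1+Dox libraries, with the mean and SD beside the points. IFIT2, IFIT1, IFI6 and DDX58 are higher in every shEHD1+Dox library, and SP100, OAS3, IFI44 and IFI44L are lower in every one.

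The IFITM proteins, which hinder the fusion of viruses with endosomal membranes, did not pass the test. IFITM1 and IFITM2 were at 28.8 ± 1.79 and 38.7 ± 1.57 CPM in shNTC+Dox and at 31.6 ± 4.34 and 38.9 ± 2.41 CPM in shEHD1+Dox (log2 fold changes 0.14 and 0.01, SEs 0.11 and 0.08). IFITM3 had 1091, 1257 and 1128 counts against 956, 841 and 1284, a log2 fold change of -0.33 (SE 0.11, edgeR adjusted p = 0.0694) to which DESeq2 gave an adjusted p of 0.0385. The 3 genes are close copies of each other, and how reads that fit more than 1 of them were counted is not given in the sources used here.

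In the ISG15 system, USP18 rose and the others did not pass. USP18 (ENSG00000184979, chromosome 22 from 18150118 to 18177397) removes ISG15 from proteins and dampens signaling at the interferon receptor. It had 831, 790 and 518 counts in shNTC+Dox against 1157, 830 and 1217 in shEHD1+Dox, a log2 fold change of 0.45 (SE 0.12, edgeR adjusted p = 0.0362). The highest shNTC+Dox counts and the lowest shEHD1+Dox count were alike, and the groups separated only after scaling to library size. USP18 has a close copy on the same chromosome, so its counts carry that uncertainty. The call did not hold without shNTC+Dox replicate 2 (0.47, edgeR adjusted p = 0.0722), without shEHD1+Dox replicate 1 (0.40, edgeR adjusted p = 0.131) or without shEHD1+Dox replicate 3 (0.42, edgeR adjusted p = 0.125). ISG15 itself (ENSG00000187608, chromosome 1 from 1001138 to 1014540) had 642, 750 and 517 counts against 895, 646 and 1028. Its groups overlapped (log2 fold change 0.29, SE 0.11, edgeR adjusted p = 0.104). UBE2L6, the enzyme that hands ISG15 on, had 318, 316 and 147 counts against 532, 276 and 530 (log2 fold change 0.64, SE 0.26, edgeR adjusted p = 0.131), and DESeq2 gave it an adjusted p of 0.0490. TRIM25, a ubiquitin ligase that acts on RIG-I, was at 95.2 ± 1.80 and 101 ± 3.21 CPM (log2 fold change 0.09, SE 0.06, edgeR adjusted p = 0.350).

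Of 11 antiviral effectors only 3 were tested and TRIM21 rose. TRIM21 (ENSG00000132109, chromosome 11 from 4384897 to 4393702), an antibody receptor of the cytosol and a ubiquitin ligase, had 200, 222 and 129 counts against 338, 304 and 327. All shEHD1+Dox libraries were above all shNTC+Dox libraries, and the log2 fold change was 0.70 (SE 0.16, edgeR adjusted p = 0.0169). Its call was lost when shEHD1+Dox replicate 1 was left out (0.69, edgeR adjusted p = 0.0646) and when replicate 2 of that group was (0.65, edgeR adjusted p = 0.0594). SAMD9 had 46, 50 and 56 counts against 80, 70 and 70 (log2 fold change 0.39, SE 0.24, edgeR adjusted p = 0.291). PLSCR1, a phospholipid scramblase, was at 24.5 ± 0.377 and 22.2 ± 1.89 CPM (log2 fold change -0.14, SE 0.09, edgeR adjusted p = 0.323).

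The IFI genes split in direction. IFI6 (ENSG00000126709, chromosome 1 from 27666064 to 27672212), a small hydrophobic membrane protein that opposes apoptosis, had 317, 371 and 274 counts in shNTC+Dox against 636, 439 and 754 in shEHD1+Dox, and rose from 12.6 ± 0.725 to 21.5 ± 3.28 CPM (log2 fold change 0.78, SE 0.13, edgeR adjusted p = 0.00529). IFI44 (ENSG00000137965, chromosome 1 from 78649796 to 78664078) had 648, 733 and 538 counts against 360, 225 and 360, and fell from 25.0 ± 1.25 to 11.1 ± 1.77 CPM (log2 fold change -1.17, SE 0.13, edgeR adjusted p = 8.50e-04). Its upstream neighbor and paralog IFI44L (ENSG00000137959, from 78619902 to 78646145) had 222, 228 and 172 counts against 140, 122 and 155 (log2 fold change -0.71, SE 0.13, edgeR adjusted p = 0.00877). No library of one group reached into the other for any of these genes. IFI35 had 128, 126 and 101 counts against 180, 110 and 246 and did not pass (log2 fold change 0.43, SE 0.21, edgeR adjusted p = 0.200).

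The nuclear body proteins also split. SP100 (ENSG00000067066, chromosome 2 from 230415942 to 230545606), a core constituent of PML bodies that represses incoming viral DNA, had 360, 538 and 416 counts in shNTC+Dox against 157, 139 and 157 in shEHD1+Dox. It fell from 17.2 ± 3.11 to 5.42 ± 0.314 CPM, the largest fall of the 34 (log2 fold change -1.67, SE 0.16, edgeR adjusted p = 4.23e-04). PML (ENSG00000140464, chromosome 15 from 73994673 to 74047827), which builds these bodies, had 579, 661 and 508 counts against 879, 695 and 988 and rose by 0.41 on the log2 scale (SE 0.09, edgeR adjusted p = 0.0132). SP110, a relative of SP100 on the same stretch of chromosome 2, had 459, 371 and 401 counts against 571, 528 and 564, which did not overlap (log2 fold change 0.30, SE 0.13, edgeR adjusted p = 0.163). Counts of SP100 per count of SP110 were 0.784, 1.45 and 1.04 in shNTC+Dox against 0.275, 0.263 and 0.278 in shEHD1+Dox (exact permutation test, p = 0.1, the smallest possible). The call of PML did not hold without shNTC+Dox replicate 1 (0.38, edgeR adjusted p = 0.0559), without shEHD1+Dox replicate 1 (0.40, edgeR adjusted p = 0.0615) or without shEHD1+Dox replicate 3 (0.37, edgeR adjusted p = 0.0702), and that of SP100 held in each fit. PSMB8, an immunoproteasome subunit, had 46, 43 and 39 counts against 76, 42 and 61 (log2 fold change 0.33, SE 0.25, edgeR adjusted p = 0.392).

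Many of the members lie in groups along the chromosome, and 28 of the 51 had another member within 500000 bases, in 11 groups. Neighbors moved together in some groups and not in others. IFI44L and IFI44 both fell, and IFIT2, IFIT3 and IFIT1 rose beside IFIT5. On chromosome 12, OAS3 fell between OAS1, which did not pass, and OAS2, which was too low to test. The counts of OAS3 per count of OAS1 ran from 7.86 to 18.2 in shNTC+Dox and were at most 4.33 in shEHD1+Dox (exact permutation test, p = 0.1, the smallest possible). In the pairs CMPK2 with RSAD2 and PARP9 with DTX3L, which start head to head, both genes were silent in all 6 libraries.

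**Figure D5:**
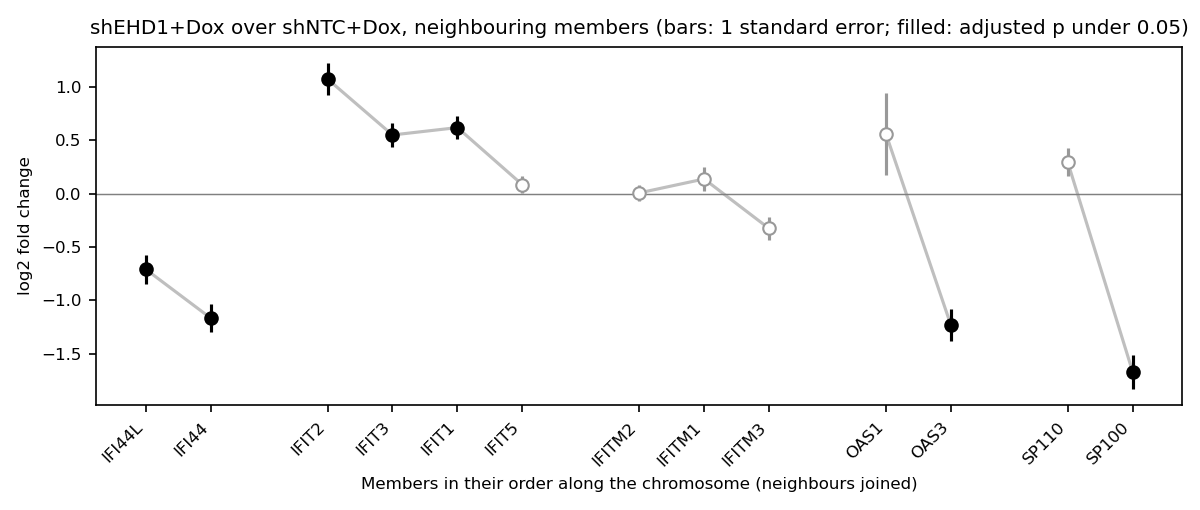
Log2 fold change of shEHD1+Dox over shNTC+Dox (vertical axis, bars of 1 standard error) for members in 5 chromosomal groups, in chromosomal order and joined by lines. IFI44L and IFI44 are both below 0, the IFIT row runs from 1.07 through 0.55 and 0.62 to 0.08, and SP110 at 0.30 stands beside SP100 at -1.67.

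The genes upstream of this family were given by lists that do not overlap it. All 22 interferon genes examined, IFNB1, IFNG, IFNE, IFNK, IFNW1 and the IFNA and IFNL genes, had 0 counts in every library. Of 17 receptors and signaling components, 16 were tested, 2 were higher and none lower at an edgeR adjusted p under 0.05, where 17.3% of all genes tested passed in either direction. The 2 that rose encode the receptor of interferon gamma. IFNGR1 had 566, 623 and 433 counts against 792, 671 and 779 (log2 fold change 0.34, SE 0.09, edgeR adjusted p = 0.0377), and IFNGR2 947, 986 and 732 against 1204, 1014 and 1367 (log2 fold change 0.29, SE 0.07, edgeR adjusted p = 0.0283). With a library left out, the adjusted p ran from 0.0448 to 0.136 for IFNGR1, passing only without shNTC+Dox replicate 3, and from 0.0268 to 0.114 for IFNGR2, passing only without shNTC+Dox replicate 3 or shEHD1+Dox replicate 2.

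Of 26 genes that sense nucleic acids or pass that signal on, 22 were tested, 4 were higher and 3 lower, against 8.59% and 8.75% of all genes tested. STING1, the adaptor of cytosolic DNA sensing, had 1326, 1425 and 1214 counts against 2228, 1752 and 2444 (log2 fold change 0.55, SE 0.07, edgeR adjusted p = 0.00191). PRKRA, a protein activator of PKR, had 1520, 1676 and 1377 against 1264, 1011 and 1277 (log2 fold change -0.50, SE 0.07, edgeR adjusted p = 0.00241). In both of these genes the groups did not overlap once scaled to library size, and the calls held in every fit with a library left out. RNF135, a ubiquitin ligase of RIG-I, rose by 0.32 (edgeR adjusted p = 0.0267), and IRF5, a transcription factor of interferon induction, rose from 13, 14 and 12 counts to 48, 22 and 49 (log2 fold change 1.44, SE 0.35, edgeR adjusted p = 0.0236). With a library left out, the adjusted p of RNF135 ran up to 0.118 and that of IRF5 up to 0.0899, and each call held only without shNTC+Dox replicate 3 or shEHD1+Dox replicate 2.

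Of 58 other genes that interferon regulates, 43 were tested, of which 10 were higher and 7 lower, 2 and 3 of them by at least 2-fold. Of all genes tested 17.3% passed at any fold change and 2.82% at 2-fold. BST2 (tetherin), which holds budding virus at the membrane, fell from 684, 754 and 561 counts to 74, 66 and 93, a log2 fold change of -3.23 (SE 0.12, edgeR adjusted p = 5.20e-06). IFI16, a nuclear DNA sensor, fell from 876, 862 and 810 counts to 143, 113 and 152 (log2 fold change -2.79, SE 0.11, edgeR adjusted p = 5.82e-06). Both fell further than any of the 34 members tested. APOL6, an apolipoprotein L, rose by 1.10 (SE 0.14, edgeR adjusted p = 0.00134), LGALS3BP, a secreted glycoprotein, by 0.62 (SE 0.07, edgeR adjusted p = 7.63e-04) and SLFN5, a Schlafen family member, by 0.41 on the log2 scale (SE 0.07, edgeR adjusted p = 0.00743). The list as a whole thus held changes in both directions, with a median log2 fold change of 0.09 over the 43.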

How the data were processed

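RNA-seq counts of 6 TC71 libraries were compared, 3 shNTC+Dox and 3 shEHD1+Dox. The values the authors deposited are raw read counts of each gene, as whole numbers. Their methods name hisat2 on hg38 with Ensembl annotations and StringTie, while the submitters' processing notes name STAR 2.7.3a and DESeq2. How StringTie output became counts, and how reads fitting more than 1 gene were counted, is not given in the sources used here. The library kit does not mark strand. Positions, exon lengths and exon overlaps came from GENCODE 44 on GRCh38, which held 99.5% of the gene identifiers.

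A gene was fitted when 3 or more libraries held 10 or more of its counts, by edgeR 4.0.16 (R 4.3.3; TMM, robust glmQLFit, glmQLFTest, group as the only term), with Benjamini-Hochberg adjustment over all of them. Genes with an adjusted p under 0.05 were called, and a fold change of 2 was added as in the study. Log2 CPM used a prior count of 2. Levels per kb divide by the length of all annotated exons of a gene together. Total counts per library, from 22711235 to 30582187, set the precision of low genes, and floors of 3 counts cover counting error only. The tests were checked on simulated data. Between libraries of a group a chi-square per degree of freedom ran from 5.56 to 27.1, so no library was a copy of another.

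The members and the further lists were chosen with earlier results of these data known. Members picked for fuller values were those called, 10 pathway landmarks, and in each role the largest change and the highest level. Among these, EIF2AK2, ADAR, IFIT5, IFITM2 and PLSCR1 were given as mean and SD and not by library. Some members outside these picks, such as SAMD9, OASL and IFI35, were also given by library. Of each further list, up to 5 called genes with the smallest adjusted p were named. Some genes of the further lists are not reported here. The remaining members and the marker lists were given more briefly. Alternatives were DESeq2 1.42.0 (Wald test, and its size factors in edgeR), 2 other count filters, any fold change, the replicate block, each library left out, and differences of log2 CPM with prior counts of 2 and 0.5. Summing called members with genes that share their exons was added after seeing the data.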

Additional observations from a re-analysis of the deposited data

How the results depend on the processing

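Under 11 other settings fitted to each gene, 9 of the 13 called members stayed past the threshold in all, and DHX58, USP18, TRIM21 and PML missed it in at least 1. The number of members called at 2-fold was 5 and ran from 3 to 5 with a library left out, being 3 without shNTC+Dox replicate 1, where IFIT2 was at 0.97 and DHX58 did not pass. At any fold change it was 13, and ran from 9 to 12 with a library left out. Over all genes, 473 were called at 2-fold and 2910 at any fold change. With a library left out these ran from 293 to 452 and from 1322 to 3616, the lowest without shEHD1+Dox replicate 3, and 1713 and 1341 were called at any fold change without shNTC+Dox replicate 1 and shEHD1+Dox replicate 1. The median of the members ran from 0.28 to 0.38 over all settings. The labels give no pairing of libraries beyond replicate numbers. Pairs with the same number, measured against the mean of each group, correlated at 0.072, -0.0593 and -0.0448. Their mean was -0.0107, against 0.00602 for pairs with different numbers. With 3 libraries per group these values cannot show whether libraries were prepared together. When a replicate block was added, 365 genes were called at 2-fold and 1766 at any fold change, and 4 and 11 members, the calls of DHX58 (adjusted p = 0.0794), USP18 (0.0558), IFNGR1 (0.0646), IFNGR2 (0.0815), IRF5 (0.0615) and RNF135 (0.0683) being lost. DESeq2 called 16 members at any fold change, 11 higher and 5 lower. Signs changed with a library left out, without a call, for IRF1 (-0.22 to 0.24), IRF7 (-0.43 to 0.029), IRF9 (-0.15 to 0.79), EIF2AK2 (-0.0097 to 0.10) and IFITM2 (-0.038 to 0.051). No cause of these changes was tested.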

Other observations

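The silent stretch of chromosome 3 that holds PARP9, DTX3L and PARP14 was looked at further after its values were seen. PARP9 and DTX3L had 0 counts in all 6 libraries, and PARP14 had 5 counts in shNTC+Dox replicate 3 and 0 elsewhere. PARP15, the next member of the PARP family, was also at 0. Genes on both sides were expressed, KPNA1 with 1968, 2289 and 2020 counts in shNTC+Dox against 2521, 2421 and 2835 in shEHD1+Dox, and HSPBAP1 with 190, 177 and 172 against 169, 172 and 175.

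Among the members too low to test, MX1, OAS2, SAMD9L and PSMB9 had counts in shEHD1+Dox replicates 1 and 3 and 0 in replicate 2, and HERC5 and HERC6 had counts in replicate 2 and 0 in replicates 1 and 3. In replicate 2 the 34 tested members had the lowest median of the group, 0.04 against 0.22 and 0.23 on the log2 CPM scale. It was the lowest library of its group for 15 of them and the highest for 13, against 9 and 12 for which replicates 1 and 3 were the highest. Its total of 24150135 counts was the lowest of the group, and whether the depth sets these values was not tested.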
